A study of Mus musculus with 4 samples.

Results

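The genes described here are 9 genes of DNA break and crosslink repair, Exo1, Brca1, Brca2, Fanca, Fancd2, Fancm, Atm, Atr and Blm, in maps of N6-methyladenosine (m6A) from newborn mouse heart. They were selected by gene name, with their measured peak calls already known, so their peak numbers, folds and q values describe them and were not tested. Of the 9 genes, 7 had at least 1 peak, among 12182 genes with a peak in all. The number of genes that could have had a peak was not known, so no share over all genes stands beside this count. On fixed lists described below, 80 of 108 other repair genes and 23 of 29 proliferation genes had a peak. Fancd2 and Atr had none in either genotype.

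The maps came from MeRIP-seq, which sequences RNA fragments of about 100 nt before (input) and after capture by an antibody against m6A. The hearts were from 4-day-old mice of the genotypes Wtapflox/flox (control), whose Wtap alleles are floxed, and Wtap-CKO (knockout). The Wtap protein brings the m6A writer enzymes to nuclear speckles, and no source used here names the Cre line behind the knockout. RNA was pooled from 7 control and 8 knockout mice, and from each pool came 1 library of captured RNA (the immunoprecipitation, IP) and 1 of input, 4 in all. There were therefore no replicates, no test between genotypes was possible, and any difference between the lists has no replicate check.

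The files were 1 peak list per genotype, 20766 peaks in the control and 21179 in the knockout, without read counts, and library depth was therefore unknown. Fold here is the authors' ratio of IP over input for a peak, and log10 q is the logarithm of its q value, so a more negative value is a stronger call. Both were given by the authors' peak caller in each list separately, at a q threshold of 0.05. They are no transcript levels. The RNA was of whole hearts, so fewer cells of a type and less RNA per cell cannot be told apart. Wtap itself had 3 control and 4 knockout peaks, which check no deletion, since a peak is not a level. All 10 cardiomyocyte marker genes on a fixed list had peaks in both lists, and among markers of other cell types the lists held peaks for 8 of 8 fibroblast, 8 of 8 endothelial, 6 of 6 smooth muscle and pericyte, 3 of 6 immune, 2 of 4 epicardial and 1 of 5 erythroid genes. The number of marker peaks differed between the lists. Cardiomyocyte markers held 54 control and 33 knockout peaks, of which Ttn held 21 and 4 and Ryr2 6 and 2. Of the other cardiomyocyte markers, Myh6 held 5 and 4, Myh7 held 3 and 4, and the rest held equal numbers in both lists. Fibroblast markers held 13 and 21, endothelial markers 15 and 19, smooth muscle and pericyte markers 18 and 20, immune markers 5 and 4, epicardial markers 2 and 5 and erythroid markers 1 and 1, and Dcn, Acta2 and Wt1 were knockout-only.

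These genes act in homologous recombination and in the Fanconi anaemia pathway. Atm and Atr are kinases that signal DNA breaks and stalled replication forks. The exonuclease Exo1 and the helicase Blm take part in cutting back the broken ends, Brca1 promotes that step, and Brca2 acts after it in recombination. Fancm brings the Fanconi core complex, of which Fanca is a part, to crosslinked DNA, and the core complex ubiquitinates Fancd2. Cells use these steps mostly while they replicate their DNA, and in the newborn mouse heart some cardiomyocytes and many other cells still divide. m6A is carried by adenosines of transcripts and is known to be frequent in long internal exons and near stop codons. Positions are on build GRCm39, and peak sequences were not analysed here.

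Exo1 was the only one of the 9 genes with peaks in 1 list alone. The exonuclease gene (ENSMUSG00000039748, chromosome 1, plus strand) had 2 control peaks and no knockout peak. The stronger one, at 175728464 to 175728853, was 390 bases wide, with a fold of 48.1 and a log10 q of -12.7. The weaker one lay 7856 bases downstream, at 175736710 to 175736830, with a fold of 11.2 and a log10 q of -2.0. The nearest knockout peaks of other genes were those of Chml, 208026 bases before the stronger Exo1 peak, and Rbm8a2, 77291 bases after it. Control peaks of Chml and Rbm8a2 were likewise the nearest of other genes in the control list. Peaks of these distant genes do not show whether a peak of Exo1 could have been called in the knockout list.

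The fold of the stronger Exo1 peak was among the highest of its list, at percentile 99.3, while its q stood at percentile 57.9 counted from the weakest. Among 4973 control peaks without a knockout counterpart, 5 (0.101%) had a fold at least as high, the Exo1 peak included. This share was taken over peaks of every q, although the highest fold reached differed with q, as given below. Peaks of 3 other genes in the control list had the same fold and p as the stronger Exo1 peak. Among all control peaks within 1 of it in log10 q, 10 of 827 (1.21%) did. Other control peaks of this strength also lacked a counterpart. Among the 827 control peaks within 1 of it in log10 q, 120 (14.5%) had no overlapping knockout peak, and 37 of these 120 (30.8%, exact 95% interval 22.7 to 39.9) lay in genes with no knockout peak at all. Among 2996 genes with 2 control peaks, 190 (6.34%) had no knockout peak. The 3 genes outside the fixed lists with the same peak counts as Exo1 and the nearest highest fold in the control list were Ahrr (fold 51.3, log10 q -17.7), Slc16a12 (37.7, -14.2) and Ybey (61.8, -16.9), at distances of 0.0929, 0.351 and 0.362 in log2 fold. The likeness rests on 1 value each, over the 187 genes with the same counts.

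**Figure D1:**
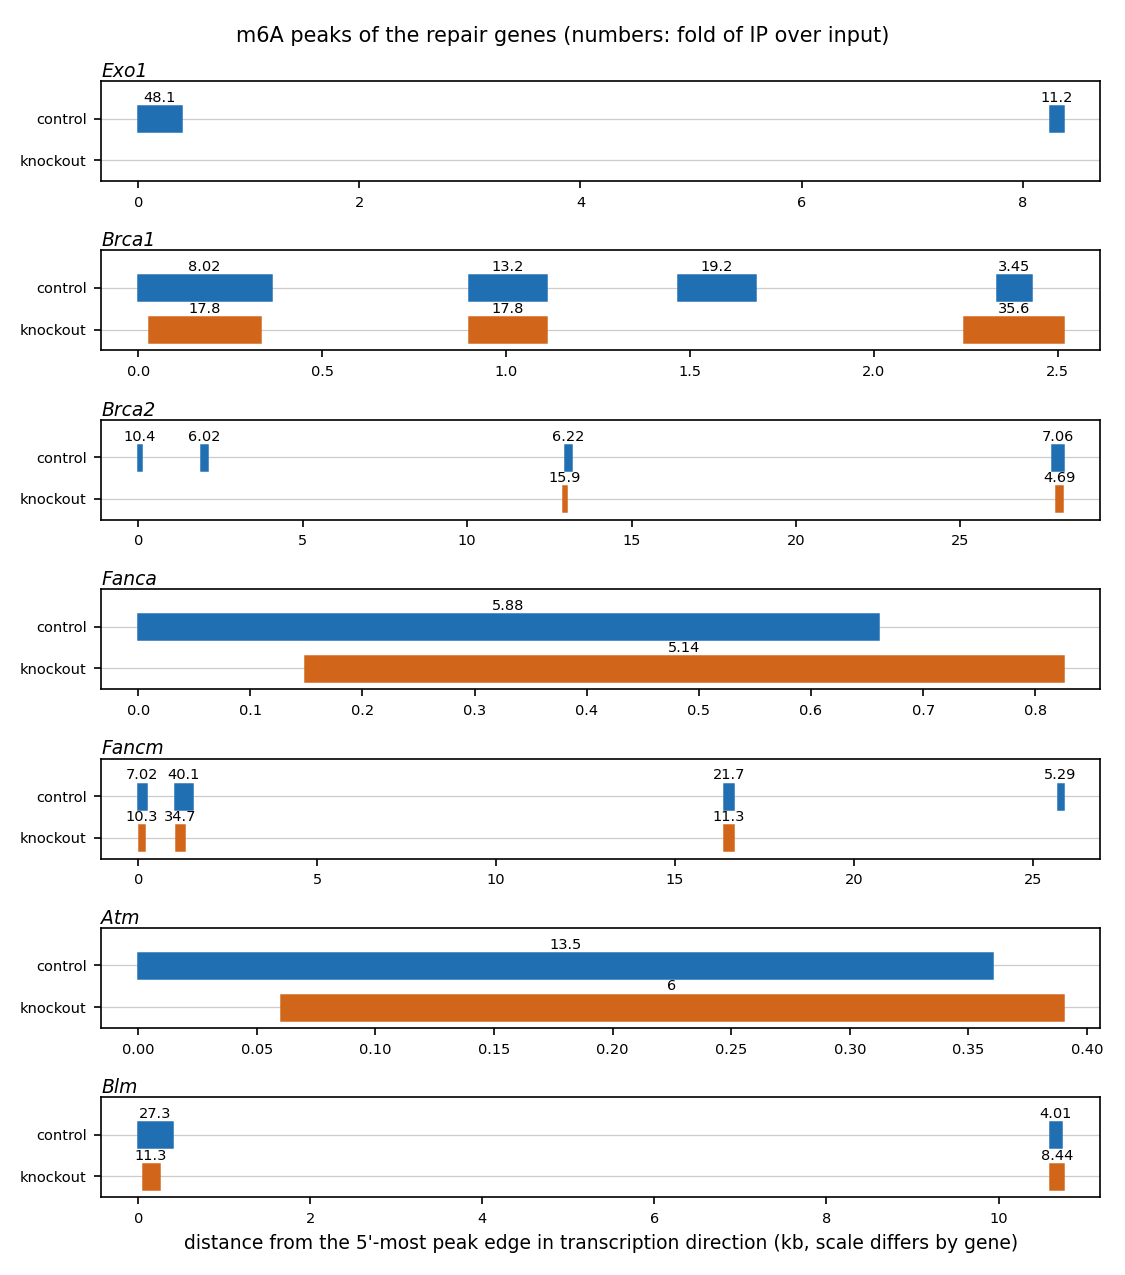
Peaks of the 7 repair genes with a peak, drawn as distance in kb from the 5'-most peak edge in the direction of transcription, with control peaks in blue above knockout peaks in orange, whole spans shown and the fold of IP over input printed above each peak. Exo1 has 2 control peaks and an empty knockout row, Brca1 keeps its peaks within 2426 bases in the control list, and each knockout peak lies under a control peak.

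The break-signalling kinase genes differed between themselves. Atm (ENSMUSG00000034218, chromosome 9, minus strand) had 1 peak in each list. In the control list it lay at 53350839 to 53351198, with a fold of 13.5 and a log10 q of -19.8. In the knockout list it lay at 53350809 to 53351138, with a fold of 6.0 and a log10 q of -4.18. These peaks shared 300 bases, 90.9% of the shorter one. Atr, the kinase gene of stalled forks, was without a peak in both lists, and with the depth unknown this does not show that its transcript lacked m6A.

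Blm (ENSMUSG00000030528, chromosome 7, minus strand), the helicase gene, had 2 peaks in each list and both overlapped. The upstream peak in transcription direction lay at 80162603 to 80162992 in the control list, with a fold of 27.3 and a log10 q of -13.9. Its knockout counterpart at 80162753 to 80162932 was 180 bases wide against 390, with a fold of 11.3 and a log10 q of -4.1. The downstream peak was close to equal in strength, with a log10 q of -3.96 at 80152270 to 80152390 in the control (fold 4.01) and of -4.16 at 80152240 to 80152390 in the knockout (fold 8.44). Both lists gave the upstream peak the higher fold, and the peaks were 10212 bases apart in the control list.

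Brca1 (ENSMUSG00000017146, chromosome 11, minus strand), which encodes a ubiquitin ligase subunit that works with Bard1, had the most compact group of peaks. Its 4 control peaks spanned 2426 bases and its 3 knockout peaks 2485 bases, and the gaps between neighbouring peaks ran from 359 to 658 bases in the control list and from 568 to 1137 bases in the knockout list. In transcription order, the first control peak, at 101416509 to 101416868, had a fold of 8.02 and a log10 q of -4.07, and its knockout counterpart had a fold of 17.8 and a log10 q of -3.6. The second peak had the same ends in both lists, 101415761 to 101415970, where the control peak had a fold of 13.2 and a log10 q of -5.41 and the knockout peak a fold of 17.8 and a log10 q of -3.86. These 2 peaks lay at the same or nearly the same place in both lists.

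The third control peak of Brca1, at 101415192 to 101415401 (fold 19.2, log10 q -4.48), had no knockout counterpart, although it lay between peaks that did. The last peak went the other way from most. It was 91 bases wide in the control list, at 101414443 to 101414533, with a fold of 3.45 and a log10 q of -3.26. In the knockout list it was 270 bases wide, at 101414354 to 101414623, with a fold of 35.6 and a log10 q of -8.58, which made it the peak of highest fold among these genes in that list. Within the control list this peak stood at percentile 19.9 of fold, and its counterpart at percentile 97.2 of the knockout list.

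Brca2 (ENSMUSG00000041147, chromosome 5, plus strand) is listed with 5 control and 3 knockout peaks. In each list 1 of these repeats another peak of the gene with ends shifted by 1 to 4 bases. The repeat stands in a second run of chromosomes at the end of the list, which holds 444 control and 441 knockout entries. Of these, 198 control and 193 knockout entries overlapped an earlier peak of the same gene. Counting such repeats as 1 peak, Brca2 had 4 control and 2 knockout peaks. The 9 genes together then had 18 control and 12 knockout peaks, in place of 19 and 13, and these counts are used from here on. The marker peak numbers of heart cell types given above also differed between the lists, for cardiomyocytes through Ttn and Ryr2. Their part in the counts of the 9 genes was not tested.

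The last Brca2 peak downstream, at 150492613 to 150492942 in the control list, had a fold of 7.06 and a log10 q of -9.02, and in the knockout list, at 150492733 to 150492912, a fold of 4.69 and a log10 q of -3.28. The repeated entry of the control list had the same fold and a log10 q of -9.49. The peak before it overlapped by only 31 bases, 34.1% of the shorter one: it lay at 150477806 to 150477986 in the control (fold 6.22, log10 q -3.7) and at 150477746 to 150477836 in the knockout (fold 15.9, log10 q -3.1). The 2 upstream control peaks of Brca2 had no counterpart and were weak. They lay at 150464816 to 150464906 (fold 10.4, log10 q -1.79) and 150466734 to 150466914 (fold 6.02, log10 q -2.6).

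Of the Fanconi genes, Fancm (ENSMUSG00000055884, chromosome 12, plus strand), the translocase gene, had 4 control and 3 knockout peaks. Its strongest peak was the widest of the 9 genes in the control list, 481 bases at 65153012 to 65153492, with a fold of 40.1 and a log10 q of -21.2. In the knockout list it was 241 bases wide, at 65153042 to 65153282, with a fold of 34.7 and a log10 q of -8.31. The 3' edge of this peak thus lay 210 bases further upstream in the knockout list while the 5' edges were 30 bases apart.

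The Fancm peak before it had a fold of 7.02 and a log10 q of -4.49 in the control list (65151993 to 65152202) and a fold of 10.3 and a log10 q of -2.6 in the knockout list. The third peak had the same ends in both lists, 65168373 to 65168613, with a fold of 21.7 and a log10 q of -5.72 in the control list against 11.3 and -3.7 in the knockout list. The fourth, at 65177692 to 65177842 (fold 5.29, log10 q -3.57), was a control peak without counterpart. Fancm and Brca1 had the most shared peaks, 3 each, and Fancm had the stronger q in the control list, while Brca1 had it in the knockout list. Of the 95 genes outside the fixed lists with the same peak counts, the nearest in highest fold of both lists were Ngfr (40.1 in the control and 38.4 in the knockout), Urb2 (48.9 and 27.2) and Ticrr (34.5 and 20.6), at distances of 0.146, 0.453 and 0.783 in log2 fold.

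Fanca (ENSMUSG00000032815, chromosome 8, minus strand), a core complex gene, had the strongest q of the 9 genes in both lists, with 1 peak in each. In the control list it lay at 123995728 to 123996387, with 2 exonic blocks, a fold of 5.88 and a log10 q of -21.5. In the knockout list it lay at 123995563 to 123996238, with 3 exonic blocks, a fold of 5.14 and a log10 q of -15.3. A peak of Zfp276, a zinc finger gene on the plus strand, overlapped it in both lists, at 123995677 to 123996394 (fold 10.6, log10 q -43.6) in the control and at 123995647 to 123996215 (fold 6.13, log10 q -21.6) in the knockout. No source used here says whether reads were counted by strand, so the Fanca peak and the Zfp276 peak cannot be told apart. No other peak of the 9 genes overlapped a peak on the other strand. Fancd2, the ubiquitinated target of the core complex, had no peak in either list.

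Over all 9 genes, 6 were found with peaks in both lists, 1 (Exo1) was control-only and none was knockout-only. Over all genes with a peak, the share with peaks in both lists was 77.6%, the control-only share 10.5% and the knockout-only share 11.9%. Of the 18 control peaks of the 9 genes, 6 (33.3%, exact 95% interval 13.3 to 59.0) had no overlapping knockout peak, against 23.9% of all control peaks. Of these 6, 2 were in Exo1, 2 in Brca2, 1 in Brca1 and 1 in Fancm. None of the 12 knockout peaks lacked a control counterpart (0%, interval 0 to 26.5), against 24.5% of all knockout peaks. Both shares of all peaks, 23.9% and 24.5%, lie within these intervals. They were taken over all 20766 control and 21179 knockout entries, with repeated entries kept. The comparison was not limited by q, although the peaks of these genes had weaker q values than the typical peak, as given below. The intervals reflect counting error alone and treat peaks of 1 gene as if they were independent.

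The 12 overlapping pairs leaned to the control list in q and were even in fold. They came from 6 genes chosen with their peak calls known, so these shares describe the pairs and were not tested. The Fanca pair among them cannot be told apart from the peaks of Zfp276. In 10 of 12 pairs (83.3%) the control peak had the smaller q, against 50.1% of 13368 pairs over all genes. The exceptions were the last peaks of Brca1 and Blm. The control peak had the higher fold in 6 of 12 pairs, against 49.0% of all pairs, and was the wider in 8 of 12, against 43.8%. A q depends on the number of reads, and neither the depth of the libraries nor the level of these transcripts could be compared, so their part in these q values was not tested.

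**Figure D2:**
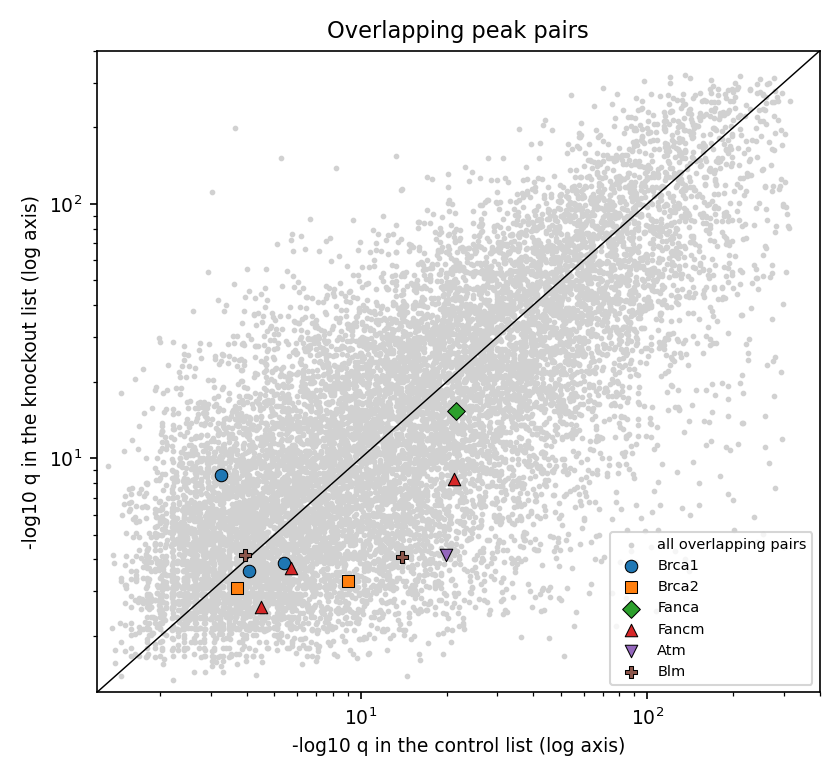
Strength of overlapping peak pairs, as -log10 q in the control list (horizontal) and in the knockout list (vertical), both on log axes, with all pairs of finite q in grey, the pairs of the repair genes as coloured symbols and a line of equality. Of the 12 pairs of the repair genes, 10 lie below the line, with Atm (19.8 and 4.18) and the upstream Blm peak (13.9 and 4.1) farthest from it.

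Peaks of these genes had weaker q values than the typical peak of their lists, while their folds were not lower. The median log10 q was -4.49 over the 18 control peaks and -3.98 over the 12 knockout peaks, against -9.13 and -7.66 over all peaks. Their median fold was 9.21 (3.45 to 48.1) among control peaks and 11.3 (4.69 to 35.6) among knockout peaks, against 7.18 and 7.03. Of the 18 control peaks 17 and of the 12 knockout peaks 11 were made of 1 exonic block, and all peaks but Fanca's were. Over all peaks, 78.6% and 76.5% had 1 block.

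For a given q, the folds of each list ended at a sharp upper edge, and several of these peaks lay on it. Both Exo1 peaks had the highest fold of all control peaks within 0.1 of them in log10 q, 118 peaks around the stronger one with a median fold of 6.96 and 535 around the weaker one with a median of 5.35. The first Brca2 peak did so too, and the control-only Brca1 peak, with a fold of 19.2, reached 95.5% of the highest. Peaks of other genes tied with both Exo1 peaks, as given below. In the knockout list the first and last Brca1 peaks, the wide Fancm peak and the upstream Brca2 peak had the highest fold at their q. Counting peaks at 95% or more of the highest fold, with a log10 q of -15 or weaker, 4 of 15 control peaks and 4 of 11 knockout peaks of these genes lay at the edge, against 17.0% and 17.4% of all such peaks. These shares were not matched on q within that limit, although the peaks of these genes had weaker q values than the typical peak. The highest fold near the weaker Exo1 peak (log10 q -2.0) was 11.2, and near the stronger one (log10 q -12.7) it was 48.1. What the fold of 48.1 adds to the q of that peak was not tested.

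Many of the values also stood at peaks of other genes. The fold of 17.8 with its log10 p of -4.45 at the first Brca1 knockout peak stood at peaks of 108 other genes of that list. The values of the stronger Exo1 peak stood at peaks of 3 other genes, and those of the weaker one at peaks of 145. The values of the upstream Brca2 knockout peak stood at peaks of 130. Of the knockout peaks of the repair genes, 11 of 12 shared their fold and p with a peak of another gene, and of the control peaks 10 of 18, against 38.4% and 35.2% of all peaks. This comparison was not limited by q, although the peaks of these genes had weaker q values than the typical peak. The strongest control peaks, those of Fanca, Atm and Blm and the wide one of Fancm, shared theirs with none. Some weaker control peaks did not either, among them the third of Brca1 (log10 q -4.48) and the third of Fancm (log10 q -5.72). The files do not give the reads behind these values.

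**Figure D3:**
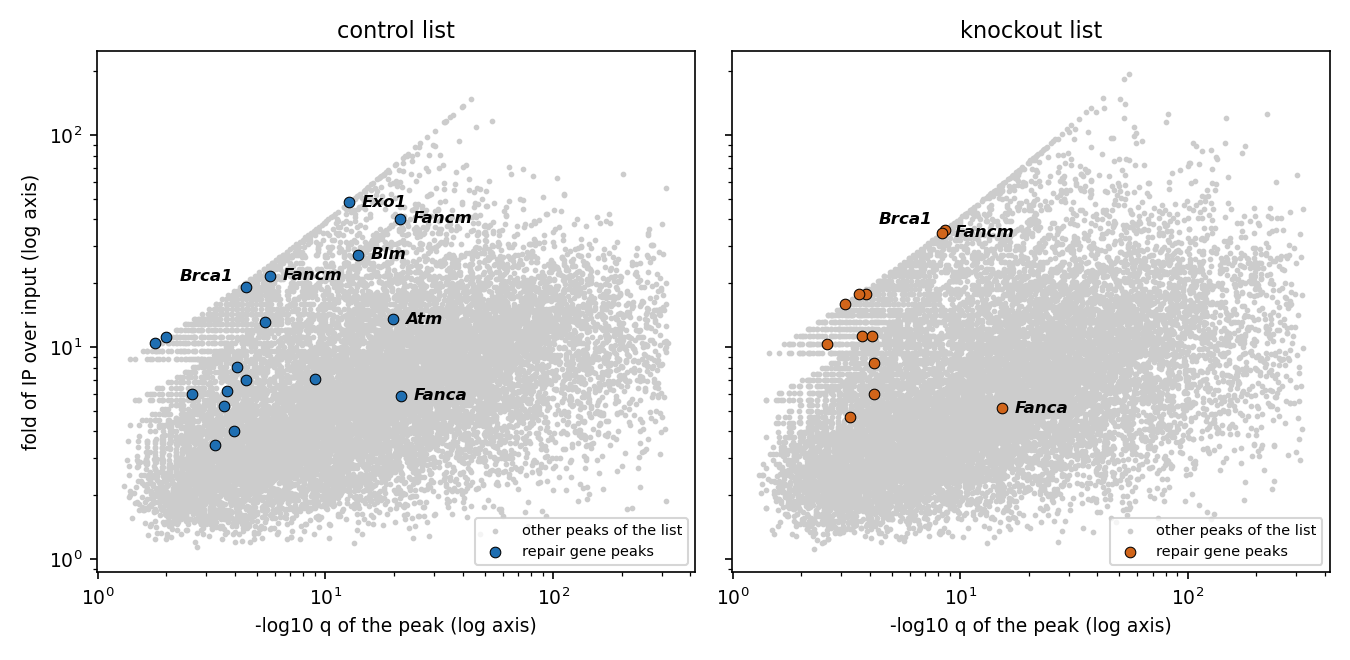
Fold of IP over input against -log10 q for each peak of the control list (left) and the knockout list (right), on log axes, with peaks of the repair genes as filled circles over the other peaks of finite q in grey and the strongest or highest labelled. The grey points end at a straight upper edge, on which the stronger Exo1 peak (fold 48.1) lies in the control list and the last Brca1 peak (fold 35.6) in the knockout list.

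Other genes of the same pathways were taken from fixed lists. The shares to set beside their counts are those over all genes with a peak. These were 77.6% in both lists, 10.5% control-only and 11.9% knockout-only. Of 33 other recombination and Fanconi genes, 25 had a peak. Both lists held peaks of 21 of them, and the other 4 were control-only. Slx4, a scaffold of structure-specific nucleases, had 5 control and 6 knockout peaks, and Rmi1, a partner of Blm, had 4 in each list, all of them shared. The recombination genes Rad54l (fold 3.48, log10 q -9.21) and Xrcc2 (fold 5.69, log10 q -9.1) each had 1 control-only peak.

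Of 17 damage checkpoint genes, 11 had a peak, and 10 of these were found in both lists. The fork protection gene Tipin (fold 2.88, log10 q -5.86) was knockout-only. Atrip, which encodes the partner of Atr, had 4 peaks in each list, all shared, with highest folds of 14.8 (control) and 11.3 (knockout), where Atr had none. Mdc1, which encodes an adaptor at marked chromatin around breaks, also had 4 shared peaks in each list. Of 7 genes of mismatch repair, in which Exo1 also acts, 6 had a peak. Both lists held peaks of 5 of them, and Pms1 (fold 6.82, log10 q -3.76) was control-only. Mlh3 had 3 control peaks and 1 knockout peak with no overlap between them, while Msh6 had 3 in each list, of which 2 control and 3 knockout peaks were shared.

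In base excision repair 18 of 22 genes had a peak, of which 14 were found in both lists, 3 were control-only and 1, Tdg (fold 5.63, log10 q -2.96), was knockout-only. The DNA glycosylase genes Neil1 and Nthl1 each had 2 control peaks and no knockout peak, as Exo1 did, with a strongest log10 q of -3.08 and -2.63. The ligase gene Lig3 had 4 control and 2 knockout peaks, and Aptx, which encodes an end-processing enzyme, had 3 in each list, 1 of them shared. Of 17 nucleotide excision genes, 11 had a peak, of which 9 were found in both lists and none was control-only. The other 2 were knockout-only, Ddb1 (fold 2.13, log10 q -6.19) and Uvssa (fold 4.69, log10 q -4.03). The endonuclease gene Ercc4 had a strongest log10 q of -47.1 (control) and -15.4 (knockout), and the damage sensor gene Xpc of -32.0 and -27.5. Of 12 end joining genes, 9 had a peak, of which 6 were found in both lists and 3 were control-only. Among these 3 were Xrcc6, which encodes a Ku subunit (fold 4.17, log10 q -7.78), and Nhej1 (fold 4.95, log10 q -3.84). The ligase gene Lig4 had 4 control and 3 knockout peaks, and Rif1 2 and 3.

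Together, 108 other repair genes were looked up and 80 had a peak, of which 65 (81.2%) were found in both lists, 11 (13.8%) were control-only and 4 (5.0%) knockout-only. The corresponding shares over all genes are those given above for the 9 genes. Of 29 proliferation genes, which many dividing cells express together with the recombination genes, 23 had a peak, of which 20 (87.0%) were found in both lists, 2 (8.7%) were control-only and 1 (4.35%) was knockout-only. They held 45 control and 46 knockout peaks. Rrm2, which encodes a subunit of ribonucleotide reductase (fold 3.11, log10 q -33.9), and Anln (fold 2.41, log10 q -5.2) were control-only, and Tyms, the thymidylate synthase gene (fold 9.38, log10 q -3.15), was knockout-only. The proliferation marker gene Mki67 had 10 control and 8 knockout peaks and Cenpf, a kinetochore gene, 8 and 6. A share of peaks is no measure of how many cells divided, and its part in the values of the 9 genes was not tested.

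**Figure D4:**
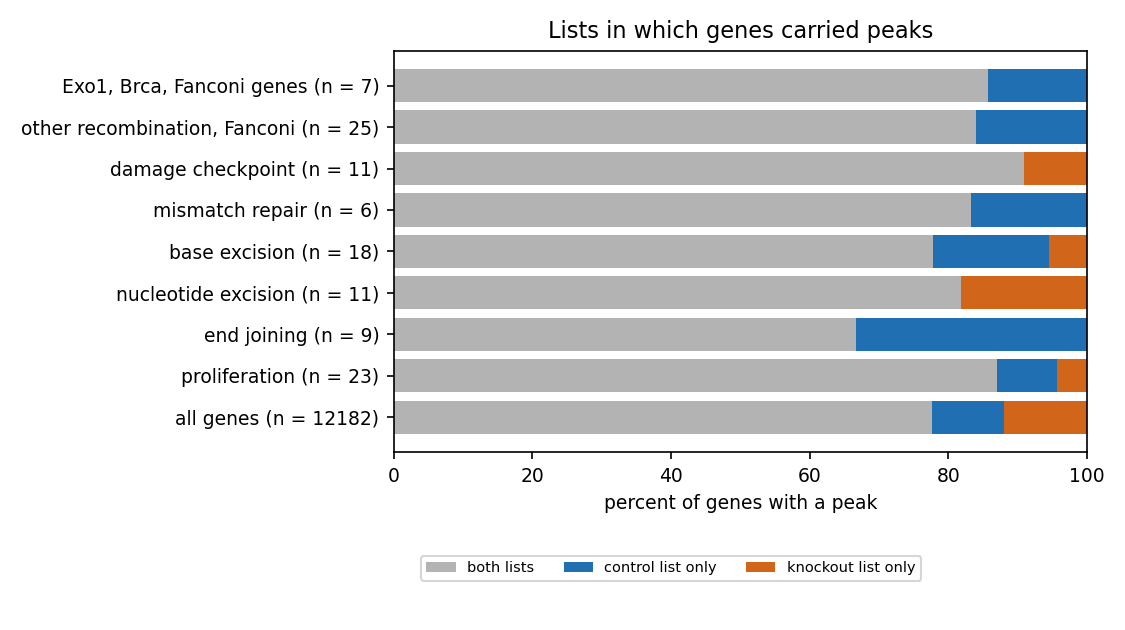
Percent of the genes with a peak that carried peaks in both lists (grey), in the control list only (blue) or in the knockout list only (orange), for Exo1 and the other Brca and Fanconi genes, for 6 lists of other repair genes, for proliferation genes and for all genes, with the number of genes with a peak beside each name. Bars of the short lists move by large steps with 1 gene, as in the top bar, where the control-only part of 14.3% is Exo1 alone.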

How the data were processed

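MeRIP-seq of heart RNA gave 1 IP and 1 input library per genotype, which the labels group by genotype and antibody. Titles of the knockout libraries carry another abbreviation (WBKO) than their genotype label. The authors called peaks in each IP against its input with exomePeak 2.16.0 at a q threshold of 0.05, per the labels and design text. Build GRCm39, HOMER 4.9.1, BWA 0.7.12 and fastp 0.19.11 are listed in the submitters' processing notes, with no role stated. The deposited lists give per peak a p-value, a log10 p and log10 q (read as a score, since some reach minus infinity), and a fold, the linear ratio of IP over input. No source used here states how libraries were scaled, and no coordinates were converted. Starts are printed 1-based.

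The comparison used pandas 2.3.3, numpy 2.4.6 and scipy 1.17.1 under Python 3.11.15, with figures by matplotlib 3.10.9. Peaks of both lists counted as shared when their exonic blocks had 1 or more bases of the same strand in common. Pairs are overlaps of 1 control with 1 knockout peak of the same gene. Intervals printed beside shares are exact (Clopper-Pearson) 95% intervals. The overlap code was tested on simulated data, copies of control peaks kept in place, moved to another chromosome or switched in strand. Partial overlaps were not among them. The 9 genes and all lists were chosen with earlier results of these data known. Named genes were all 9, up to 2 control-only, 2 knockout-only and 2 shared genes with most peaks per other list, and the 3 genes most like Exo1 and Fancm in peak counts and highest fold. A tie for the second of these was settled by q in the control list after the data were seen. The naming of Ttn, Ryr2, Myh6, Myh7, Dcn, Acta2, Wt1 and Zfp276 also followed their values. So did the counting of repeated entries as 1 peak, the pairs, the windows of q and the shared values. For 1 checkpoint name, misspelled in the list as Claspn, no symbol matched and it counts as unmatched.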

Additional observations from a re-analysis of the deposited data

How the results depend on the processing

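Results were recomputed with stricter limits on q (0.01 and 0.001) and on fold (2 and 4), with equal lists of 20766 peaks, with an overlap of 50% of the shorter peak, overlap without strand, whole spans, and, added after the data were seen, repeated entries counted as 1. Under those that filter peaks, 6 of the 9 genes were found in both lists, 1 was control-only and 0 were knockout-only, as in the lists as deposited. Control peaks of these genes without counterpart numbered 4 to 7 over all alternatives. Knockout peaks without counterpart went from 0 to 1 with a fold of at least 4, which drops the control peak of fold 3.45 in Brca1, and from 0 to 1 with an overlap of 50%, which the pair of Brca2 with 31 shared bases misses. For proliferation genes, a fold of at least 4 left 11 in both lists (20 as deposited), 0 control-only (2) and 4 knockout-only (1). The knockout-only count was 2 at q at or under 0.001 and 3 at a fold of at least 2, where fewer peaks are counted. In all, 74 of the values stayed within 1.5 times that of the lists as deposited and 7 did not. No paired analysis was possible because each group held 1 library. Depth is unknown, so a missing peak is not a missing modification.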
